A study of Mus musculus with 12 samples.

Results

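Imprinted and fetal growth genes were read in mouse embryonic fibroblasts treated with 1 of the chemical combinations SGCF and 6TCF. The group holds 8 genes picked by name, with earlier results of these data known. They are the imprinted genes H19, Dlk1, Mest, Peg3, Plagl1 and Grb10, and the fetal chromatin genes Hmga1 and Hmga2. Probe sets for 7 of the 8 were named in the annotation used here, out of 10675 genes tested on Affymetrix Mouse Genome 430A 2.0 arrays, and Hmga1 was not analysed here. The probe sets that stand for the genes are 1448194_a_at for H19, 1449939_s_at for Dlk1, 1423294_at for Mest, 1433924_at for Peg3, 1426208_x_at for Plagl1, 1425458_a_at for Grb10 and 1422851_at for Hmga2. H19 had 1 probe set, which the annotation assigns to H19 and to Mir675, the microRNA gene that lies inside H19 on chromosome 7. The array cannot tell these apart, so the feature is written H19/Mir675.

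Each combination was followed at days 0, 5 and 10 with 2 arrays per day, which gave 6 groups and 12 arrays. The groups were SGCF day 0, SGCF day 5, SGCF day 10, 6TCF day 0, 6TCF day 5 and 6TCF day 10. All cells were fibroblasts plated in medium with 10% fetal bovine serum and moved to a medium with 15% serum and basic fibroblast growth factor at 40 ng/ml. No array is labelled as untreated at day 5 or 10, so a change from day 0 also holds time in culture and medium. No label used here says what SGCF and 6TCF are made of. The labels do not say whether the arrays of a group came from separate embryos or cultures, so p-values measure the spread between these arrays, which may be technical.

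Imprinted genes are expressed mainly from the copy inherited from 1 parent, and many of them control growth before birth. As a rule, paternally expressed ones such as Igf2, Dlk1, Mest, Peg3 and Plagl1 are expressed in placenta and in mesodermal tissues of the embryo, as is the maternally expressed H19, and their levels fall after birth. Hmga2 is not imprinted; its protein binds AT-rich DNA through AT hooks, is abundant in the embryo and is low in most adult tissues.

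The microRNA inside H19 is shown because the probe set cannot tell the pair apart. The H19 transcript carries the hairpin of miR-675 on chromosome 7, minus strand, at chr7:142577112-142577133 for the 5p and chr7:142577078-142577099 for the 3p form, and the mature forms are printed with the seed (bases 2 to 8) in capitals. They come from RefSeq on GRCm38.p6, and the array measured neither of them as a mature microRNA.
mmu-miR-675-5p: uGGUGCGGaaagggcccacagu
mmu-miR-675-3p: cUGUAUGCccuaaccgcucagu
The 2 seeds differ.

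Promoters of Mest, Plagl1 and Dlk1 are shown because their levels rose together under 6TCF, and that of Peg3 because its change by day 10 differed between the arms. Each is the 300-base RefSeq stretch on GRCm38.p6 that ends shortly after a gene start, written along the gene's own strand. Mest lies at chr6:30737800-30738099 on the plus strand, which is 1 of 3 starts listed for it. Plagl1 is at chr10:13090582-13090881 on the plus strand and Dlk1 at chr12:109452573-109452872 on the plus strand. Peg3 is at chr7:6730370-6730669 on the minus strand. Capitals mark matches on either strand to the CREB half-site TGACG, the full CREB site TGACGTCA, the GC palindrome GGGGCCCC or the TATA box TATAAA.
Mest: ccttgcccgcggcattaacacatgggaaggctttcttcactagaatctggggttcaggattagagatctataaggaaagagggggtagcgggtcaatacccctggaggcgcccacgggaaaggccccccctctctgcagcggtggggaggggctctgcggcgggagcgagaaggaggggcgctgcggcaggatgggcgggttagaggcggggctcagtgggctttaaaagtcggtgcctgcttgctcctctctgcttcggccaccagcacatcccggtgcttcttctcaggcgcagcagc
Plagl1: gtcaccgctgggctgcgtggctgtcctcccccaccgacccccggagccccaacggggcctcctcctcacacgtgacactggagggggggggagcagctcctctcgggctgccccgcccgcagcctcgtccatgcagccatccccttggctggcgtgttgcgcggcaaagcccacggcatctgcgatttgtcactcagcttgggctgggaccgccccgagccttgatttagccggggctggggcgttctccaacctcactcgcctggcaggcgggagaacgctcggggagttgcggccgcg
Dlk1: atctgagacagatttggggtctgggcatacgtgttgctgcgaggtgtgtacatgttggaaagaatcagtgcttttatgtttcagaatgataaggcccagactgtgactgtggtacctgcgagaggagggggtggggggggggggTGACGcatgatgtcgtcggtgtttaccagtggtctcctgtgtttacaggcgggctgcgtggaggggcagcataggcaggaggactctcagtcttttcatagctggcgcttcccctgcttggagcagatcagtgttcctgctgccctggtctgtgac
Peg3: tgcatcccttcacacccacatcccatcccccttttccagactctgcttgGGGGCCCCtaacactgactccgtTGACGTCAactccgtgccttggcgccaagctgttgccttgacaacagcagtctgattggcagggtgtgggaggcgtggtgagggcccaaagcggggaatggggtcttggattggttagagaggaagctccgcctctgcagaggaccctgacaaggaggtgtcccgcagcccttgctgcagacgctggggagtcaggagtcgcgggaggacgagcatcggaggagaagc
The windows of Mest and Plagl1 held no match. The Dlk1 window held 1 half-site, and 20.8% of 32851 RefSeq promoters of the same length hold at least 1. The Peg3 window held 1 full CREB site, which includes the half-site on both strands, against 1.79% of promoters, and 1 GC palindrome, against 1.08%. CpG dinucleotides numbered 17 in this Mest window, 26 in Plagl1, 9 in Dlk1 and 13 in Peg3, against a median of 7 over all promoters. A match is a description of the letters and not a site of binding.

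Deposited values were linear intensities with array medians of 60.9 to 86.2 in the SGCF arm and 102.4 to 142 in the 6TCF arm. The arrays were quantile normalized here, and levels are given as log2(intensity + 16), a scale that understates the change of dim genes. Because brightness followed the arm, a processing batch and the arm cannot be told apart in any comparison between arms. The 2 arrays of each group had r = 0.985 (SGCF day 0, the lowest) to 0.997 with each other, a correlation over genes, which are not independent replicates. All 10 fibroblast markers passed the filter on dim genes, and their summed normalized intensity was 54340 to 83590 on the 12 arrays. In such bulk samples, fewer cells of a type and less RNA per cell cannot be told apart. The number of arrays limits the precision. A gene is called higher or lower at an adjusted p under 0.05 in limma, with Benjamini-Hochberg adjustment over all 10675 genes, and errors of log2 changes are standard errors (SE).

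The comparisons with day 0 ask how the fibroblasts' imprinted growth genes moved during each treatment. By day 5 of SGCF, Hmga2 rose and Mest fell, and Grb10 was called lower in a result that several alternative settings lost. By day 10 of SGCF, H19/Mir675, Peg3 and Plagl1 were higher than at day 0 and Hmga2 was lower. Some alternative settings lost the calls of Peg3 and Hmga2. By day 5 of 6TCF, Dlk1, Mest, Peg3 and Plagl1 rose and none of the 7 fell. Several alternative settings lost the Peg3 call there. By day 10 of 6TCF, Dlk1, Mest and Plagl1 were still higher than at day 0, and Grb10 and Hmga2 were lower.

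The counts stand against a high background of change, and the members were chosen with earlier results of these data known. In SGCF, 3 of 7 members were called at day 5 (1 higher, 2 lower), where 25.5% of all genes were called (12.8% higher, 12.7% lower). Without replicate 2 of SGCF day 0 this count was 6, since H19/Mir675, Peg3 and Plagl1 were then called lower as well. At day 10 of SGCF, 4 of 7 were called against day 0 (3 higher, 1 lower), where 38.8% of all genes were called (20.5% higher, 18.3% lower). In 6TCF, 4 of 7 were called at day 5 (4 higher, 0 lower) where 27.7% of all genes were called (15.1% higher, 12.6% lower). This count was 3, without Peg3, under median scaling, with an offset of 1, with no filter on dim genes or without normalization between arrays. It was 5 with all 4 day 0 arrays as 1 group. At day 10 of 6TCF, 5 of 7 were called (3 higher, 2 lower), where 43.2% of all genes were called (23.2% higher, 20% lower). The median log2 change of the members was -0.34 at day 5 and 0.42 at day 10 of SGCF, where that of all genes was 0.02 and 0.03. In 6TCF it was 0.72 at day 5 and 0.28 at day 10, where that of all genes was -0.0004 and -0.01.

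**Figure D1:**
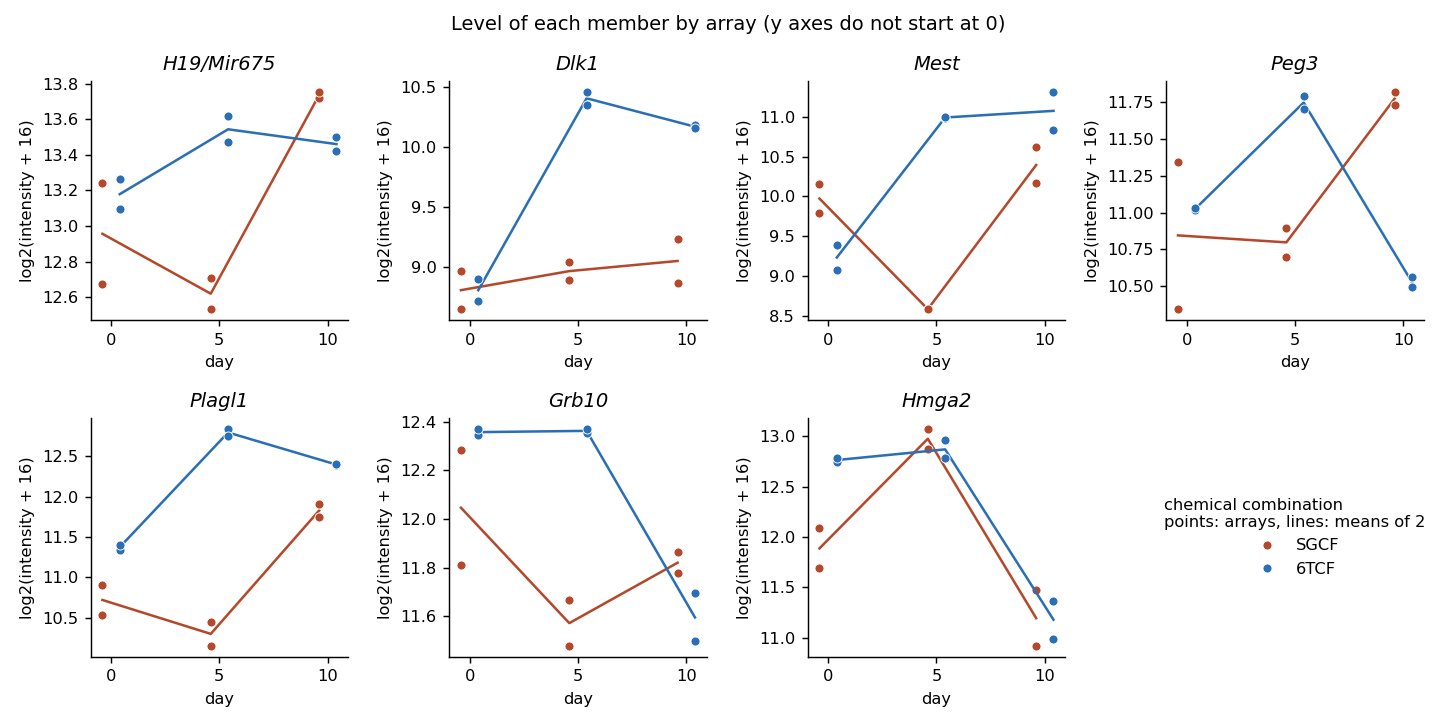
Level of each gene on each array as log2(intensity + 16) against day, with SGCF in red and 6TCF in blue, points for arrays and lines through the means of 2 arrays; points are set slightly apart around days 0, 5 and 10, and the y axes do not start at 0. Dlk1 stood at 10.16 or more on the 4 arrays of 6TCF days 5 and 10 and at 9.23 or less elsewhere, whereas both arms of Hmga2 ended between 10.92 and 11.47 at day 10.

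H19 is a maternally expressed long noncoding RNA that restrains growth and hosts miR-675. In SGCF, H19/Mir675 had levels of 13.24 and 12.67 at day 0, 12.53 and 12.71 at day 5, and 13.72 and 13.76 at day 10. In 6TCF it had 13.26 and 13.09 at day 0, 13.47 and 13.62 at day 5, and 13.50 and 13.42 at day 10. The arrays of SGCF day 10 had the highest normalized levels of the 12, whereas in the deposited intensities they read 10258 and 11304, below 5 of the 6 arrays of 6TCF. The level at SGCF day 10 was higher than at day 0 by 0.78 ± 0.17 (adjusted p = 0.00301) and higher than at day 5 by 1.12 ± 0.17 (adjusted p = 0.000531). The changes in 6TCF, 0.37 ± 0.17 by day 5 (adjusted p = 0.133) and 0.28 ± 0.17 by day 10 (adjusted p = 0.2), were not called, although the arrays of days 5 and 10 did not overlap with those of day 0.

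Dlk1 encodes a paternally expressed membrane protein with EGF-like repeats that is known to hold back adipocyte differentiation. In SGCF its levels were 8.97 and 8.65 at day 0, 9.04 and 8.89 at day 5, and 9.23 and 8.87 at day 10. In 6TCF they were 8.90 and 8.72 at day 0, 10.46 and 10.35 at day 5, and 10.19 and 10.16 at day 10. In normalized levels the arms started alike and parted by day 5, with no overlap of arrays. The deposited intensities at day 0 were 384 and 355 in SGCF and 676 and 625 in 6TCF. In 6TCF the level was higher than at day 0 by 1.60 ± 0.15 at day 5 (3.03-fold, adjusted p = 9.21e-06) and by 1.36 ± 0.15 at day 10 (adjusted p = 2.17e-05). In SGCF the changes were 0.16 ± 0.15 (adjusted p = 0.498) and 0.24 ± 0.15 (adjusted p = 0.236), and neither was called.

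Mest, also paternally expressed, encodes a protein of the alpha/beta hydrolase fold that is found in embryonic mesoderm and in expanding adipose tissue. SGCF arrays read 10.16 and 9.79 at day 0, 8.58 and 8.58 at day 5, and 10.62 and 10.16 at day 10. On 6TCF arrays the levels were 9.39 and 9.07 at day 0, 10.98 and 11.00 at day 5, and 10.84 and 11.31 at day 10. The arms moved in opposite directions by day 5, and SGCF then returned to the range of its day 0 or above. Mest fell by 1.39 ± 0.20 on the log2 scale by day 5 of SGCF (adjusted p = 0.000252) and was higher by 1.81 ± 0.20 at day 10 than at day 5 of SGCF (adjusted p = 6.14e-05). Its level at day 10 of SGCF stood 0.42 ± 0.20 from day 0, which was not called (adjusted p = 0.115). In 6TCF it rose by 1.76 ± 0.20 by day 5 (3.39-fold, adjusted p = 3.43e-05) and by 1.84 ± 0.20 by day 10 (3.59-fold, adjusted p = 1.56e-05).

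Plagl1, or Zac1, is a paternally expressed zinc finger transcription factor known in mouse to regulate other imprinted genes. In SGCF it had 10.91 and 10.53 at day 0, 10.15 and 10.45 at day 5, and 11.75 and 11.91 at day 10. In 6TCF it had 11.34 and 11.41 at day 0, 12.84 and 12.75 at day 5, and 12.39 and 12.40 at day 10. Both arms ended above their own day 0, by different routes. SGCF stood -0.42 ± 0.15 from day 0 at day 5 (not called, adjusted p = 0.058) and rose by 1.11 ± 0.15 by day 10 (adjusted p = 0.000106). 6TCF rose by 1.42 ± 0.15 by day 5 (adjusted p = 1.95e-05) and was higher by 1.02 ± 0.15 at day 10 (adjusted p = 0.000175). The dimmer of its 2 probe sets was called in the same comparisons with day 0, at 0.73 by day 10 of SGCF and 0.77 and 0.63 by days 5 and 10 of 6TCF.

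Peg3 encodes a paternally expressed zinc finger protein linked in mouse to fetal growth and maternal behaviour. SGCF arrays read 11.35 and 10.34 at day 0, 10.70 and 10.90 at day 5, and 11.73 and 11.82 at day 10. Those of 6TCF read 11.02 and 11.03 at day 0, 11.71 and 11.79 at day 5, and 10.49 and 10.56 at day 10. In normalized levels the arms crossed between days 5 and 10. The deposited intensities at day 10 overlapped, at 2104 and 2504 in SGCF and 1954 and 2250 in 6TCF. The day 0 arrays of SGCF differed from each other more for Peg3 (SD 0.71) than for any other member. Peg3 rose by 0.93 ± 0.24 by day 10 of SGCF (adjusted p = 0.00834), which became 0.54 and was not called without normalization between arrays (adjusted p = 0.0657). At day 5 of SGCF it stood -0.05 ± 0.24 from day 0 (adjusted p = 0.91), and this became 0.45 (adjusted p = 0.0269) without replicate 1 of SGCF day 0 and -0.54 (adjusted p = 0.0124) without replicate 2. In 6TCF it rose by 0.72 ± 0.24 by day 5 (adjusted p = 0.0397), a call lost without either array of 6TCF day 0 or day 5. It was also lost under median scaling, with an offset of 1, with no filter on dim genes, and without normalization between arrays, where the change was 0.38 (adjusted p = 0.224). Between days 5 and 10 of 6TCF it fell by 1.22 ± 0.24 on the log2 scale (adjusted p = 0.00701), a call lost without replicate 1 of 6TCF day 5 or of 6TCF day 10. Against day 0 the day 10 value of -0.50 ± 0.24 was not called (adjusted p = 0.109).

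Peg3 had 3 probe sets, which were read in a separate fit over 18624 probe sets. At day 10 of 6TCF the 2 dimmer ones were called lower than day 0, at -0.79 (adjusted p = 0.00146) and -0.57 (adjusted p = 0.0351), while the brightest was not called. All 3 were higher on average at day 5 of 6TCF, and 2 of them were called. The probe sets thus gave the same directions in 6TCF and differed in which of them passed the threshold. By day 10 of SGCF, the brightest (0.93, adjusted p = 0.00982) and 1417355_at (0.59, adjusted p = 0.0102) were called higher than day 0. Probe set 1417356_at was not called there (0.44, adjusted p = 0.104).

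Grb10, on chromosome 11, encodes an adaptor that binds the insulin and IGF1 receptors and restrains their signalling, expressed from the maternal copy in most tissues. In SGCF its levels were 12.28 and 11.81 at day 0, 11.48 and 11.67 at day 5, and 11.86 and 11.78 at day 10. In 6TCF they were 12.34 and 12.37 at day 0, 12.35 and 12.37 at day 5, and 11.50 and 11.69 at day 10. Its level in 6TCF was lower at day 10 than on every earlier array of that arm. In 6TCF the change from day 0 was 0.01 ± 0.15 at day 5 (adjusted p = 0.988) and -0.76 ± 0.15 at day 10 (adjusted p = 0.00171). In SGCF it fell by 0.47 ± 0.15 on the log2 scale by day 5 (adjusted p = 0.0402) and stood at -0.23 ± 0.15 at day 10 (adjusted p = 0.274). The day 5 call in SGCF was lost without replicate 1 of SGCF day 0 (-0.24, adjusted p = 0.23) and without either array of SGCF day 5. It was also lost with the mean of all its probe sets (-0.16, adjusted p = 0.439), with an offset of 1 and with only the arrays of SGCF in the fit.

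The 3 probe sets of Grb10 disagreed at day 5. In SGCF only the brightest was called (lower), and the other 2 stood at 0.0001 and -0.02. In 6TCF the brightest stood at 0.01, while another fell by 0.53 (adjusted p = 0.0285). By day 10 of 6TCF all 3 were lower, at -1.40, -0.76 and -0.63. Probe sets of a gene can read different transcript forms, and which forms were read was not tested.

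Hmga2, on chromosome 10, was the member called lower in both arms by day 10. In SGCF it had 12.09 and 11.69 at day 0, 12.88 and 13.08 at day 5, and 11.47 and 10.92 at day 10. In 6TCF it had 12.75 and 12.78 at day 0, 12.96 and 12.78 at day 5, and 10.99 and 11.37 at day 10. In normalized levels the arms met at day 5 and again at day 10, and the arrays of SGCF day 0 lay below those of 6TCF day 0. Deposited intensities at day 5 were 5754 and 6015 in SGCF, below the 7716 and 9204 of 6TCF. At day 10 they were 1741 and 1329 in SGCF, below the 2836 and 3840 of 6TCF. Hmga2 rose by 1.09 ± 0.20 by day 5 of SGCF (2.13-fold, adjusted p = 0.00157; 0.65 and not called, adjusted p = 0.12, with all 4 day 0 arrays as 1 group) and fell by 0.69 ± 0.20 on the log2 scale by day 10, against day 0 (adjusted p = 0.0157). Without replicate 1 of SGCF day 0 the day 10 change was -0.49 and not called (adjusted p = 0.108), nor was it without replicate 2 of SGCF day 10 (-0.41, adjusted p = 0.166). From day 5 to day 10 of SGCF the change was -1.78 ± 0.20 (adjusted p = 6.98e-05). In 6TCF the change was 0.11 ± 0.20 by day 5 (adjusted p = 0.746) and -1.59 ± 0.20 by day 10 (adjusted p = 5.59e-05). All 3 probe sets of Hmga2 moved in the same direction in each of these comparisons, from 1.09 to 1.24 by day 5 of SGCF and from -1.61 to -1.50 by day 10 of 6TCF. By day 10 of SGCF, probe set 1450780_s_at was not called against day 0 (-0.58, adjusted p = 0.0632) in the fit over probe sets.

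**Figure D2:**
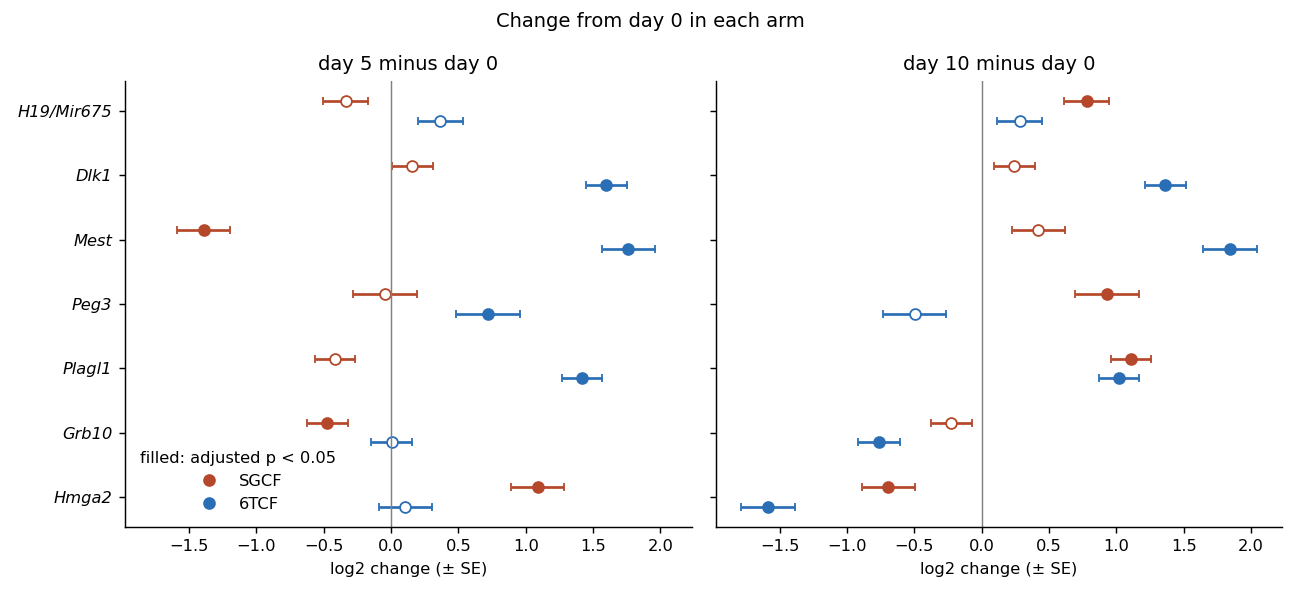
Log2 change from day 0 (x axis) for each gene at day 5 and day 10, SGCF in red above 6TCF in blue, with bars of 1 SE; filled points passed an adjusted p under 0.05. Mest lies at -1.39 in SGCF and 1.76 in 6TCF at day 5, and Peg3 at 0.93 in SGCF and -0.50 in 6TCF at day 10.

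**Figure D3:**
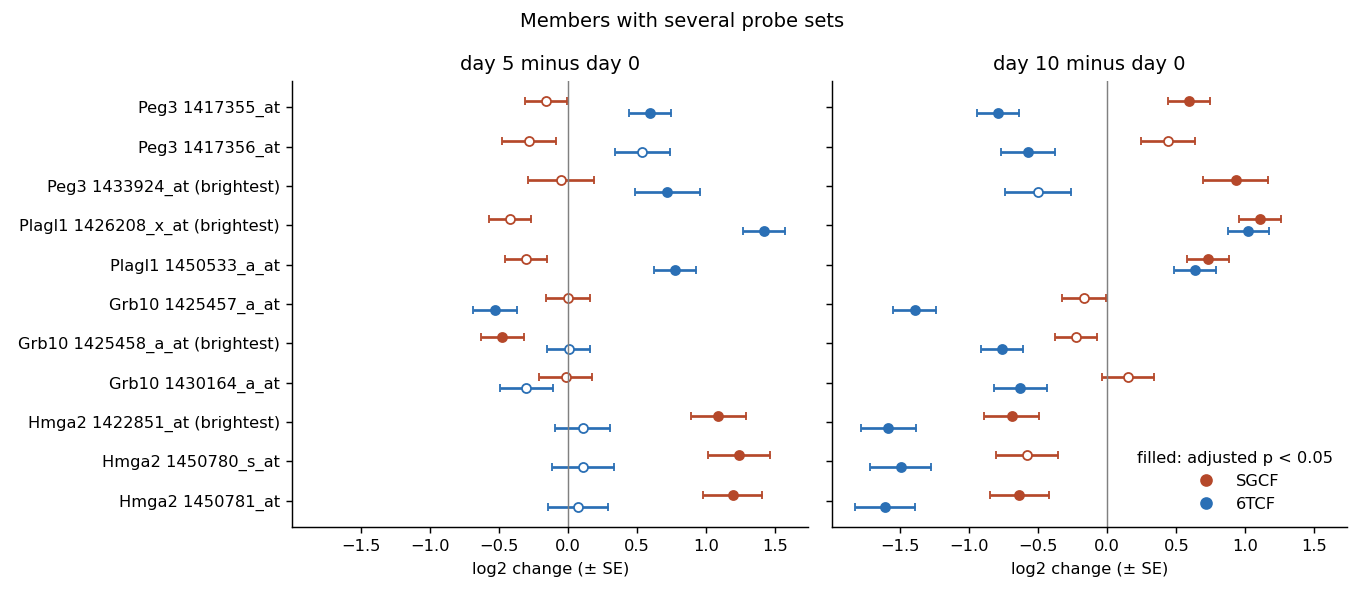
Log2 change from day 0 (x axis, bars of 1 SE) of each probe set of the 4 genes that have several, SGCF in red and 6TCF in blue; filled points passed an adjusted p under 0.05 in the fit over 18624 probe sets. The probe sets of Hmga2 and Plagl1 lie close in direction, whereas those of Grb10 part at day 5.

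Between days 5 and 10, Mest and Plagl1 rose in SGCF and were not called in 6TCF, Peg3 rose in SGCF and fell in 6TCF, and Hmga2 fell in both. Between days 5 and 10 of SGCF, 5 of 7 members were called (4 higher, 1 lower), where 21.7% of all genes were called (11.8% higher, 9.97% lower). The 4 that rose were H19/Mir675, Mest, Peg3 and Plagl1, the last by 1.53 ± 0.15 (adjusted p = 2.72e-05). The Peg3 call was lost without replicate 1 of SGCF day 5 or replicate 2 of SGCF day 10. Over the same days of 6TCF, 3 of 7 were called and all 3 were lower, namely Peg3, Grb10 and Hmga2, where 15.8% of all genes were called (8.69% higher, 7.11% lower). With 1 array of 6TCF day 5 or day 10 left out, this count was 1 to 3. Hmga2 changed by -1.69 ± 0.20 in 6TCF (adjusted p = 0.000482) and Grb10 by -0.77 ± 0.15 (adjusted p = 0.00812), a call lost without replicate 1 of 6TCF day 5 or of 6TCF day 10 and without normalization between arrays (-0.46, adjusted p = 0.148).

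Whether the arms differed in their change from day 0 was tested directly, as the SGCF change minus the 6TCF change. By day 5, 3 of 7 members differed, all lower in SGCF, where 8.97% of all genes were called (2.91% higher, 6.06% lower). Mest changed by -1.39 in SGCF and 1.76 in 6TCF, a difference of -3.15 ± 0.28 (adjusted p = 3.46e-05). For Plagl1 the changes were -0.42 in SGCF and 1.42 in 6TCF, a difference of -1.84 ± 0.21 (adjusted p = 0.000214), and for Dlk1 they were 0.16 in SGCF and 1.60 in 6TCF, a difference of -1.44 ± 0.22 (adjusted p = 0.0013). Hmga2 ran the other way, at 1.09 in SGCF and 0.11 in 6TCF, and its difference of 0.98 ± 0.28 was just outside the threshold (adjusted p = 0.0501). Of its other probe sets, 1 was called higher at 1.12 (adjusted p = 0.0453) in the fit over probe sets and 1 stood at 1.13 (adjusted p = 0.0518), and 7 of 18 alternative settings called the gene. The differences of H19/Mir675 (-0.70, adjusted p = 0.0951), Peg3 (-0.77, adjusted p = 0.193) and Grb10 (-0.48, adjusted p = 0.209) were not called. Without replicate 2 of SGCF day 0 these 3 were called lower as well, which made 6 of 7.

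By day 10 the arms differed in 4 of 7 members (2 higher, 2 lower in SGCF), where 25.7% of all genes were called (12.3% higher, 13.4% lower). Dlk1 remained lower in SGCF relative to 6TCF, with a difference of -1.12 ± 0.22 (adjusted p = 0.00375), and so did Mest at -1.42 ± 0.28 (adjusted p = 0.00414). Peg3 differed by 1.43 ± 0.33 (adjusted p = 0.0102), and all 3 of its probe sets were called higher in this comparison. Hmga2 differed by 0.89 ± 0.28 (adjusted p = 0.0369), a call that 8 of 18 alternative settings lost (adjusted p = 0.0142 to 0.336 over them). In the fit over probe sets, 1450780_s_at of Hmga2 was not called (0.92, adjusted p = 0.0585). Plagl1, which had differed at day 5, stood at 0.08 ± 0.21 (adjusted p = 0.801). H19/Mir675 (0.50, adjusted p = 0.143) and Grb10 (0.54, adjusted p = 0.0895) were not called. The other probe sets of Grb10 stood at 1.23 (adjusted p = 0.00329, called higher) and 0.78 (adjusted p = 0.0582) in the fit over probe sets, so whether Grb10 was called depended on the probe set.

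Each arm had its own day 0 arrays, and these were compared to show where the arms began. Mest was higher in SGCF than in 6TCF by 0.74 ± 0.20 (adjusted p = 0.0261), Plagl1 was at -0.65 ± 0.15 (adjusted p = 0.0133) and Hmga2 at -0.88 ± 0.20 (adjusted p = 0.0131). These were 3 of 7 members, where 17.4% of all genes were called (8.59% higher, 8.81% lower). Leaving out either array of 6TCF day 0 ended all 3 calls, while without replicate 1 of SGCF day 0 5 members were called and without replicate 2 1 was. Without normalization between arrays the Mest difference turned to -0.06 (adjusted p = 0.822) and that of Dlk1, 0.0004 in the normalized data, to -0.79 (adjusted p = 0.00152). In the fit over probe sets, both dimmer ones of Grb10 were called lower in SGCF at day 0 (-0.88, adjusted p = 0.00421, and -0.74, adjusted p = 0.0222). Those of Peg3 split, at -0.56 (adjusted p = 0.0275), 0.54 (adjusted p = 0.0766) and -0.18 (adjusted p = 0.637). The dimmer one of Plagl1 was not called (-0.40, adjusted p = 0.0871), and all 3 of Hmga2 were called lower. The differences in change from day 0 contain these starting levels.

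Within a gene, the 6 group means can be put in order, and neighbours differing by no more than the larger SD of the pair are called not separated. This describes the spread of 2 arrays and is not the limma test, and an order across arms holds for normalized levels only. For Dlk1 the order was 6TCF day 5, 6TCF day 10 and then SGCF day 10, SGCF day 5, SGCF day 0 and 6TCF day 0, of which the last 4 did not differ beyond their spread, and limma did not call 6TCF day 10 against day 5 (-0.24, adjusted p = 0.308). For Mest it was 6TCF day 10 and 6TCF day 5, not separated, then SGCF day 10, SGCF day 0, 6TCF day 0 and SGCF day 5, each more than that SD from the next, although limma did not call SGCF day 10 against day 0 (adjusted p = 0.115) and their nearest arrays were level. The means of Plagl1 lay more than the SD apart at every step, from 12.79 at 6TCF day 5 through 6TCF day 10, SGCF day 10, 6TCF day 0 and SGCF day 0 to 10.30 at SGCF day 5. Of these steps, limma did not call 6TCF day 10 against day 5 (-0.40, adjusted p = 0.0874) or SGCF day 5 against day 0 (-0.42, adjusted p = 0.058). Peg3 was led by SGCF day 10 (11.77) and 6TCF day 5 (11.75), which were not separated, and 6TCF day 10 was the lowest (10.53). For H19/Mir675, SGCF day 10 (13.74) was separated from 6TCF day 5 (13.54) below it. Grb10 had 6TCF day 5, 6TCF day 0 and SGCF day 0 at its top with no step beyond the spread. Hmga2 had SGCF day 5, 6TCF day 5 and 6TCF day 0 at its top, not separated, and SGCF day 10 and 6TCF day 10 at its foot, also not separated.

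Likeness of pattern was measured as Pearson's r over the 12 arrays, which share groups and normalization, and it is given as a description. Among the members, Mest and Plagl1 had r = 0.86, H19/Mir675 and Plagl1 0.84, and Dlk1 and Plagl1 0.83. Hmga2 ran against Mest at r = -0.51. Among all other genes, those most like Mest were Igfbp5 (0.95), which encodes an IGF binding protein, the fibroblast growth factor receptor gene Fgfr2 (0.94) and Dclk1 (0.93). The mean level of Igfbp5 was 11.69, 8.73 and 11.78 at days 0, 5 and 10 of SGCF and 10.73, 12.57 and 12.57 at days 0, 5 and 10 of 6TCF. Like Mest, it was low at day 5 of SGCF and high at days 5 and 10 of 6TCF. Dlk1 was most like the calcium-binding protein gene Calb1 (0.98), Sap30l (0.98) and Spock1 (0.97). Plagl1 was most like Plce1 (0.97), Ctnnd2 (0.96) and Nbl1 (0.95), H19/Mir675 most like Sufu (0.98), Natd1 (0.97) and Rmnd5a (0.96), and Peg3 most like Casc3 (0.95), Vcan (0.93) and Nisch (0.92). For Grb10 the closest were Zc3h18 (0.95), Palld (0.94) and Tnk2 (0.93), and for Hmga2 Phc2 (0.97), Cytip (0.94) and Macroh2a1 (0.92). Cytip is also dim and passed the filter only at SGCF day 5, 6TCF day 0 and 6TCF day 5, where Hmga2 was highest.

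Neighbours in the imprinted clusters were read next, chosen by locus after values of these data had been seen. Igf2, the paternally expressed growth factor gene beside H19 on chromosome 7, changed by -0.21 ± 0.20 by day 5 (adjusted p = 0.488) and rose by 0.87 ± 0.20 by day 10 of SGCF (adjusted p = 0.00475). In 6TCF it rose by 0.93 ± 0.20 by day 5 (adjusted p = 0.00439) and 0.89 ± 0.20 by day 10 (adjusted p = 0.00361). Between days 5 and 10 of SGCF, Igf2 rose by 1.09 ± 0.20 (adjusted p = 0.00224), beside the 1.12 ± 0.17 of H19/Mir675. Meg3, the maternally expressed noncoding RNA of the Dlk1 cluster on chromosome 12, fell in SGCF by 1.17 ± 0.14 by day 5 (adjusted p = 8.65e-05), and its change by day 10 was -0.67 ± 0.14 (adjusted p = 0.00313). In 6TCF its change was -0.38 ± 0.14 at day 5 (adjusted p = 0.0725) and -0.66 ± 0.14 at day 10 (adjusted p = 0.00309), where Dlk1 rose. Copg2, beside Mest on chromosome 6, and Zim3, beside Peg3 on chromosome 7, were not called in any of the 9 comparisons. Ddc, next to Grb10 on chromosome 11, fell by 0.68 ± 0.12 on the log2 scale by day 10 of SGCF (adjusted p = 0.00077). By day 10 of 6TCF its change of -0.09 was not called (adjusted p = 0.592). The SGCF minus 6TCF difference of Ddc at day 0 was -0.99 ± 0.12 (adjusted p = 0.000422).

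Other imprinted genes moved in both directions in both arms. Of 65 listed, 41 were tested. The arrays do not tell parental copies apart, so whether the listed genes were imprinted in these fibroblasts was not tested. In SGCF, 12 rose and 7 fell by day 5, and 15 rose and 8 fell by day 10, with a median log2 change of 0.18 and 0.05. Among all genes, 25.5% were called by day 5 and 38.8% by day 10 of SGCF. In 6TCF, 11 rose and 8 fell by day 5, and 12 rose and 8 fell by day 10, with medians of 0.01 and 0.07. There the share of all genes called was 27.7% by day 5 and 43.2% by day 10. The largest rises at day 10 of SGCF were those of Cdkn1c, a maternally expressed cyclin-dependent kinase inhibitor gene (2.69 ± 0.11), the matrix proteoglycan gene Dcn (2.57 ± 0.13), Igf2r, whose receptor clears Igf2 (1.39 ± 0.23), and Rasgrf1, a Ras activator gene (1.23 ± 0.24). The largest falls were those of the protease inhibitor gene Tfpi2 (-1.74 ± 0.19), the noncoding Rian of the Dlk1 cluster (-0.82 ± 0.15), Asb4 (-0.74 ± 0.19) and the flippase gene Atp10a (-0.69 ± 0.17).

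In 6TCF the imprinted genes with the largest rises by day 10 were Dcn (3.38 ± 0.13), the creatine synthesis gene Gatm (3.06 ± 0.15), Cdkn1c (1.30 ± 0.11) and the trophoblast transcription factor gene Ascl2 (1.30 ± 0.15). Those with the largest falls were Tfpi2 (-2.46 ± 0.19), Atp10a (-1.32 ± 0.17), Peg12 (-1.28 ± 0.17) and the lipid transfer gene Osbpl5 (-0.79 ± 0.13). Adjusted p was 0.00907 or less for each of these genes in the arm for which it is named. In both arms the ranking was by size of change among called genes, without regard to level. A gene was tested if at least 1 group mean exceeded 5.25, so its other means may lie below that filter. A large change listed here can therefore be that of a dim gene. Igf2r, Asb4 and Rian were not called at day 10 of 6TCF, nor were Gatm, Peg12 and Osbpl5 at day 10 of SGCF. The arms differed in their change from day 0 for 9 of the 41 by day 5 (4 higher, 5 lower in SGCF) and for 14 by day 10 (9 higher, 5 lower). This difference was called for 8.97% of all genes by day 5 and for 25.7% by day 10. Gatm differed by -3.23 by day 10 (adjusted p = 7.03e-06), and Cdkn1c by -1.95 by day 5 (adjusted p = 2e-05) and 1.39 by day 10 (adjusted p = 0.000143).

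**Figure D4:**
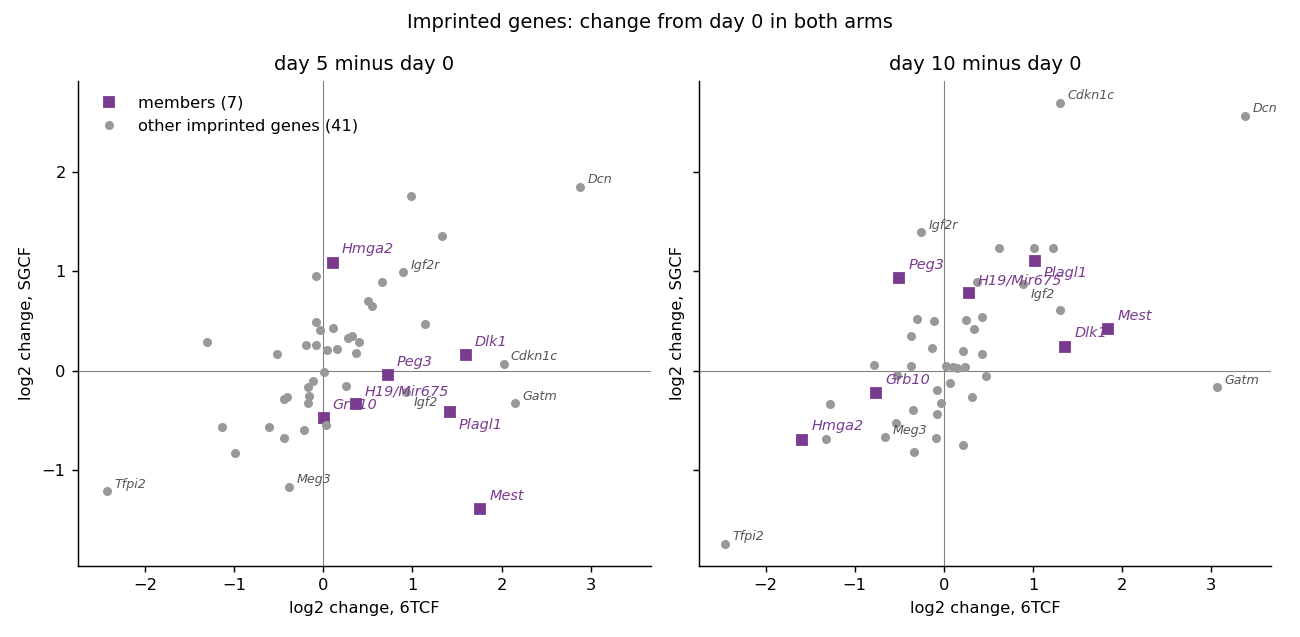
Log2 change from day 0 in 6TCF (x axis) against that in SGCF (y axis), at day 5 and day 10, for the 7 members (squares) and 41 other imprinted genes (grey points). The squares lie in several quadrants, with Mest at lower right at day 5, and Dcn and Cdkn1c stand at upper right at day 10.

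Genes that act beside Grb10 at the insulin and IGF receptors numbered 17 tested. Of these, 10 rose and 2 fell by day 10 of SGCF (median 0.37), and 3 rose and 4 fell by day 10 of 6TCF (median 0.03). Among all genes, 38.8% were called by day 10 of SGCF (20.5% higher, 18.3% lower) and 43.2% by day 10 of 6TCF (23.2% higher, 20% lower). The substrate gene Irs1 rose by 1.16 ± 0.20 (adjusted p = 0.000696) and Foxo1, a transcription factor gene restrained by insulin signalling, by 1.00 ± 0.21 in SGCF (adjusted p = 0.00281). By day 10 of 6TCF, Irs1 (-0.15, adjusted p = 0.596) and Foxo1 (0.34, adjusted p = 0.216) were not called, although Irs1 had risen by 0.91 by day 5 (adjusted p = 0.0051). In 6TCF the docking protein gene Gab1 rose by 0.97 ± 0.16 (adjusted p = 0.000487) and the kinase subunit gene Pik3r1 by 0.54 ± 0.13 (adjusted p = 0.00453). Both also rose by day 10 of SGCF, Gab1 by 0.72 (adjusted p = 0.0041) and Pik3r1 by 0.90 (adjusted p = 0.000157). The receptor gene Igf1r was at -0.54 ± 0.18 in SGCF (adjusted p = 0.0309) and -1.34 ± 0.18 in 6TCF (adjusted p = 9.18e-05). Grb14, which encodes an adaptor of the same family as Grb10, was at -1.50 ± 0.14 in SGCF (adjusted p = 5.92e-06) and -1.09 ± 0.14 in 6TCF (adjusted p = 7.14e-05). The difference between arms by day 10 was called for 5 of the 17, all higher in SGCF, with Irs1 at 1.30 (adjusted p = 0.00696). It was called for 25.7% of all genes (12.3% higher, 13.4% lower).

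Genes of the fetal program around Hmga2 were split. Of 10 tested, 2 rose and 4 fell by day 10 of SGCF (median 0.14), and 3 rose and 4 fell by day 10 of 6TCF (median -0.30). The share of all genes called was 38.8% by day 10 of SGCF and 43.2% by day 10 of 6TCF. Igf2bp1, which encodes a fetal protein that binds Igf2 messenger RNA, was at -0.49 ± 0.16 in SGCF (adjusted p = 0.0276) and -1.57 ± 0.16 in 6TCF (adjusted p = 9.89e-06). Its relative Igf2bp3 was at -0.42 in SGCF (adjusted p = 0.0137) and at -1.67 ± 0.12 in 6TCF (adjusted p = 4.77e-07). The difference between arms was 1.07 for Igf2bp1 (adjusted p = 0.00578) and 1.25 for Igf2bp3 (adjusted p = 0.000384). The midkine gene Mdk rose by 2.03 ± 0.15 in SGCF (adjusted p = 6.89e-07) and 1.26 ± 0.15 in 6TCF (adjusted p = 3.37e-05). Gpc3, which encodes a growth-restraining surface proteoglycan, rose by 1.71 ± 0.16 in SGCF (adjusted p = 4.85e-06) and 1.91 ± 0.16 in 6TCF (adjusted p = 1.78e-06). Ezh2, the catalytic subunit gene of a Polycomb complex, fell by 1.45 ± 0.15 in SGCF (adjusted p = 1.49e-05).

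High mobility group genes other than Hmga2 moved in both directions in both arms. Of 8 tested, 2 rose and 2 fell by day 10 of SGCF (median -0.26), where 38.8% of all genes were called. By day 10 of 6TCF 1 rose and 1 fell (median -0.06), where 43.2% of all genes were called. Hmgb3 was at -1.88 ± 0.15 (adjusted p = 1.15e-06) and Hmgb2 at -1.69 ± 0.21 in SGCF (adjusted p = 6.99e-05), both encoding DNA-bending chromatin proteins. The nucleosome-binding protein gene Hmgn3 rose by 0.52 ± 0.13 in SGCF (adjusted p = 0.00837) and 0.46 ± 0.13 in 6TCF (adjusted p = 0.0143). Hmgxb3 was higher in SGCF at 0.47 ± 0.16 (adjusted p = 0.0355) and lower in 6TCF at -0.50 ± 0.16 (adjusted p = 0.0247).

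Proliferation genes and markers of other cells moved with the same groups. Of 18 proliferation genes tested, 18 were lower by day 10 of SGCF (median -1.94) and 10 by day 10 of 6TCF (median -0.41). Among all genes, 18.3% were called lower by day 10 of SGCF and 20% by day 10 of 6TCF. Bub1, a spindle checkpoint kinase gene, was at -2.69 ± 0.21 in SGCF (adjusted p = 1.32e-06) and -0.88 ± 0.21 in 6TCF (adjusted p = 0.00539). Hmga2 thus fell alongside lower proliferation genes at day 10 of both arms, but at day 5 of SGCF it rose while 13 of the 18 were lower. By day 5 of SGCF, 12.7% of all genes were called lower. Of 18 macrophage markers, 17 were lower by day 10 of SGCF and 11 by day 10 of 6TCF. Their summed intensity was 8221 and 9261 at SGCF day 0, 1165 and 945.6 at SGCF day 5 and 875.9 and 960.2 at SGCF day 10, and 3932 and 3736 at 6TCF day 0, 1260 and 1391 at 6TCF day 5 and 2329 and 2159 at 6TCF day 10. Against these falls, Cd14 rose by day 10 of SGCF (0.82, adjusted p = 0.000575). Among called macrophage markers the largest rises by day 10 of 6TCF were those of Cd14 (1.33, adjusted p = 1.24e-05) and Cd53 (1.05, adjusted p = 0.000876). The leukocyte gene Ptprc averaged 4.67 to 4.80 at days 5 and 10 of both arms, below the filter at 5.25. Of 16 muscle genes, 10 were higher by day 10 of 6TCF, with a summed intensity of 1308 and 4574 on its arrays, against 1792 and 1913 at 6TCF day 0, and 1 by day 10 of SGCF. Acta1 (-1.91, adjusted p = 0.00149) and Des (-0.35, adjusted p = 0.0291) were called lower by day 10 of 6TCF. By day 10 of SGCF, Acta1 was called lower (-2.12, adjusted p = 0.00086). The share of all genes called higher was 23.2% by day 10 of 6TCF and 20.5% by day 10 of SGCF.

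Of 10 fibroblast markers, 3 rose and 4 fell by day 10 of SGCF, and 3 rose and 6 fell by day 10 of 6TCF. Among all genes, 20.5% rose and 18.3% fell by day 10 of SGCF, and 23.2% rose and 20% fell by day 10 of 6TCF. Of 9 adipocyte genes tested, 7 rose by day 10 of SGCF and 5 by day 10 of 6TCF. Of 10 keratinocyte and epithelial genes, 1 rose and 3 fell by day 10 of SGCF, and 5 rose and 1 fell by day 10 of 6TCF. Of 9 endothelial genes, 3 rose and 2 fell by day 10 of SGCF, and 3 rose and 3 fell by day 10 of 6TCF. Signal at the 3' end of actin over the 5' end was 0.28 to 0.48 (log2) on the SGCF arrays. On 6TCF arrays it was 0.30 and 0.39 at day 0, 0.76 and 0.88 at day 5, and 1.04 and 1.03 at day 10, so it moved with time in that arm. The same measure for Gapdh was -0.05 to 0.17 on the SGCF arrays and 0.34 to 0.59 on the 6TCF arrays, so it followed the arm, and its 6TCF values did not follow the days (0.34 and 0.44 at day 0, 0.59 and 0.40 at day 5, 0.49 and 0.49 at day 10). The part of these other cells, of proliferation and of RNA quality in the changes of the imprinted genes and Hmga2 was not tested.

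**Figure D5:**
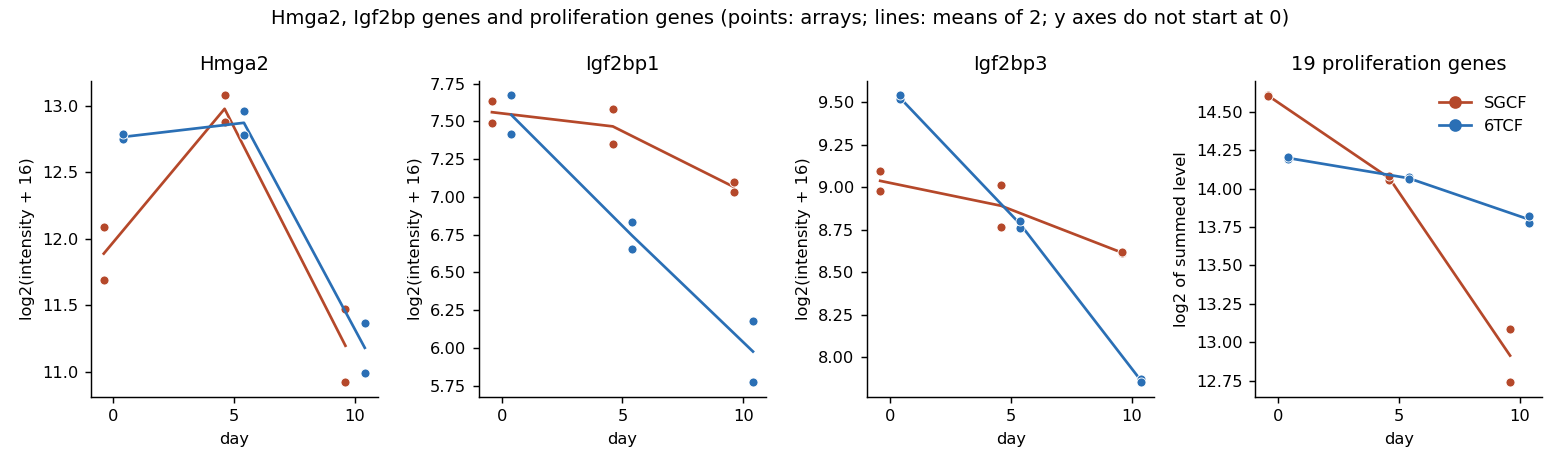
Level on each array (log2(intensity + 16), y axes not starting at 0) against day for Hmga2, Igf2bp1 and Igf2bp3, and the log2 summed level of 19 proliferation genes, with SGCF in red, 6TCF in blue and lines through the means of 2 arrays. Hmga2 is higher at day 5 than at day 0 in SGCF, stays near its day 0 level at day 5 of 6TCF, and is lower at day 10 in both arms. The proliferation sum is lower at each later day.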

How the data were processed

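RNA from mouse embryonic fibroblasts was measured on 12 arrays. The authors deposited 1 linear intensity per probe set (22690 probe sets), and RMA, limma and MAS5 appear, with neither version nor role, per the submitters' processing notes. Which of them made the intensity is unknown here. Here, log2(intensity + 16) was quantile normalized, a gene was represented by its brightest probe set, and 10675 genes were kept because at least 1 group mean exceeded 5.25, the lower quartile of all values. Probe sets with 1 symbol numbered 20380, several 691 and none 1555; the shared H19 and Mir675 probe set was kept as 1 feature. The test was limma 3.58.1 in R 4.3.3 on all 12 arrays with 6 group means, 9 comparisons and Benjamini-Hochberg adjustment over all 10675, called at an adjusted p under 0.05. It was tested on simulated data.

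The members and gene lists were chosen with earlier results of these data known. Named genes were all members, the 3 genes most correlated with each, and among called genes the largest changes from day 0 at day 10 per direction and arm, up to 4 of the other imprinted genes and up to 2 of other lists. Locus neighbours and genes named for a difference between arms lie outside this rule and were chosen after their values were seen. Alternatives covered normalization, pseudocount, filter, probe set choice, variance prior, arrays in the fit, pooled day 0, the replicate block and leaving out each array.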

Additional observations from a re-analysis of the deposited data

Results flagged for a closer look

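The change from day 0 differed between the arms, by a direct test of SGCF minus 6TCF in limma, for 3 genes at day 5 and 4 at day 10. At day 5 the differences were -3.15 for Mest (adjusted p = 3.46e-05), -1.84 for Plagl1 (adjusted p = 0.000214) and -1.44 for Dlk1 (adjusted p = 0.0013). At day 10 they were -1.42 for Mest (adjusted p = 0.00414), -1.12 for Dlk1 (adjusted p = 0.00375), 1.43 for Peg3 (adjusted p = 0.0102) and 0.89 for Hmga2 (adjusted p = 0.0369). Each difference rests on 2 arrays per group.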

How the results depend on the processing

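Over 63 results (7 members in 9 comparisons) and their alternatives, 919 of 1008 values kept direction and side of the threshold, 43 lost and 43 gained a call, and 3 turned: Peg3 at day 5 of SGCF without replicate 1 of SGCF day 0 (0.45, and -0.54 without replicate 2), and without normalization between arrays Dlk1 (-0.79) and Mest (-0.057) in SGCF minus 6TCF at day 0. Leaving out 1 array, members called ranged 3 to 3 against 4 for 6TCF day 5, 5 to 5 against 5 for 6TCF day 10, 1 to 3 against 3 for 6TCF day 10 minus day 5, 2 to 6 against 3 for SGCF day 5, 3 to 5 against 4 for SGCF day 10 and 4 to 5 against 5 for SGCF day 10 minus day 5. The range was 0 to 5 against 3 at day 0 between arms, 3 to 6 against 3 for the difference by day 5 and 3 to 6 against 4 for that by day 10. Without normalization, 5 members were called at SGCF day 5 and 6 at day 0 between arms. With an intensity trend and robust prior, 5 were called for the difference by day 5. The cause was not tested.

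Same-numbered arrays deviated together at r = -0.28 to 0.11 over 6 pairs, so the numbers share only a number. With the replicate number as a block, Grb10 at day 5 of SGCF (-0.47) was no longer called, and no other member call changed; all genes called numbered 2654 at 6TCF day 5, against 2958 without the block.

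Counts of all genes moved over 1.5 times when 1 array was left out: 1765 at the lowest against 2958 for 6TCF day 5, 372 against 1687 for 6TCF day 10 minus day 5, 1378 against 2319 for SGCF day 10 minus day 5, 385 to 2998 against 1857 at day 0 between arms, 574 against 958 for the difference by day 5 and 1459 against 2740 for that by day 10. Without normalization they were 1213 for SGCF day 10 minus day 5 and 7028 at day 0 between arms, where the median of all genes shifted to -0.61 and 0.925% of calls were higher, against 49.4%. The share of calls that were higher was then 29.8% against 54.7% at 6TCF day 5, 85.1% against 55% for 6TCF day 10 minus day 5, 16.1% against 50.2% at SGCF day 5, 22.2% against 52.9% at SGCF day 10, 18.4% against 32.5% for the difference by day 5 and 17.6% against 47.8% for that by day 10. Median scaling gave 40.3% against 54.1% for SGCF day 10 minus day 5. With each of 18624 probe sets tested on its own, calls numbered 4821, 7619, 4267, 6625, 3610 and 3253 for 6TCF days 5 and 10, SGCF days 5 and 10, SGCF day 10 minus day 5 and day 0 between arms.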
